A study of Mus musculus with 12 samples.

Results

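Gene expression in whole lung was compared between mice whose endothelial cells had lost Nfat5 and control mice, both kept in normoxia. The comparison took the 3 arrays titled as normoxic knockout and the 3 titled as normoxic control, 6 of the 12 arrays of the study, and all 24704 genes that the arrays named. All mice carried floxed Nfat5 alleles. The knockout, Nfat5(EC)-/-, was induced in male and female adults aged 10 to 12 weeks with daily intraperitoneal tamoxifen, 1 mg over 5 days, and the control, Nfat5fl/fl, received the solvent miglyol instead. The mice then had 2 to 3 weeks to recover, after which other mice of both kinds spent 21 days in hypoxia; those 6 arrays, 3 of each genotype, enter the same limma fit, so they add to the spread behind every SE and p-value, and their own knockout minus control difference comes from other animals. Tamoxifen and the deletion came together, so their effects cannot be told apart. The labels do not name the promoter that drives the Cre recombinase. The design text gives 4 mice per group and states that preparations with adhering tissue such as thymus, or with a poor response to hypoxia, were left out; arrays 1, 2 and 4 of each normoxic group are present. The arrays are taken here as separate mice, and p-values measure only the spread between these arrays.

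NFAT5, also called TonEBP, is a transcription factor of the Rel family. Under high salt it induces the genes by which cells keep their volume: transporters and enzymes that load the cell with organic osmolytes such as inositol, taurine and betaine, and heat shock proteins. Unlike the other NFAT proteins it is not controlled by the phosphatase calcineurin, and it also acts in immune cells and in cells of the vessel wall that are stretched or short of oxygen.

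Values are log2 expression, so a difference of 1 is a change of 2-fold. The 6 arrays were alike over all genes: Pearson's r was 0.990 to 0.994 within a group and 0.987 to 0.994 between the groups, and the median of the knockout minus control differences was -0.0039. The median gene had an SD of 0.14 among control arrays and 0.12 among knockout arrays. Xist, the RNA that coats the inactive X chromosome of females, was high on array 1 of both groups, at 10.40 in the control and 9.27 in the knockout, and between 3.34 and 3.51 on the other 4, so each group had 1 array with a female pattern. The median difference of 8 thymocyte markers was -0.02. Probe sets named Gapdh and Eef1a1, genes that nearly every cell uses, read only 3.02 to 3.29 and 3.26 to 4.55 on these arrays, so a low value here is not evidence that a gene was silent. Markers of heart muscle and fat read higher on knockout array 2, and less so on knockout array 4, than on the other arrays. Ucp1, the uncoupling protein of brown fat, read 3.37, 3.67 and 3.35 on control arrays 1, 2 and 4, against 3.38, 9.31 and 3.97 on the knockout arrays. For Nppa, the atrial natriuretic peptide precursor, the values were 8.03, 7.96 and 8.44 in controls and 8.05, 11.94 and 9.41 in knockouts. Results that these markers move with are given with and without knockout array 2.

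Nfat5, the gene labelled as deleted, read lower in knockout lungs by an amount that did not pass correction over all genes. The control arrays read 9.01, 9.39 and 8.92, and the knockout arrays 8.59, 8.80 and 8.62, so the groups did not overlap. The mean difference was -0.44 ± 0.15 (SE), to 0.74 of the control level, with an unadjusted limma p of 0.012 and an adjusted p of 0.62. An exact two-sided permutation test of the 3 against 3 arrays gave p = 0.1, the smallest such a design allows. Within each group Nfat5 ranked the arrays in the same order as the mean of the nuclear noncoding RNAs described below. That mean was 5.77, 5.95 and 5.53 on control arrays 1, 2 and 4, and 5.30, 5.63 and 5.33 on the knockout arrays. Whole lung keeps the Nfat5 RNA of all cells outside the endothelium, and no source used here gives where the probes lie on the deleted gene. In bulk tissue, fewer cells of a type and less RNA per cell cannot be told apart. In hypoxia the same difference was -0.08 (adjusted p = 0.97), and the interaction, the change between the oxygen states, had an unadjusted p of 0.11.

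**Figure D1:**
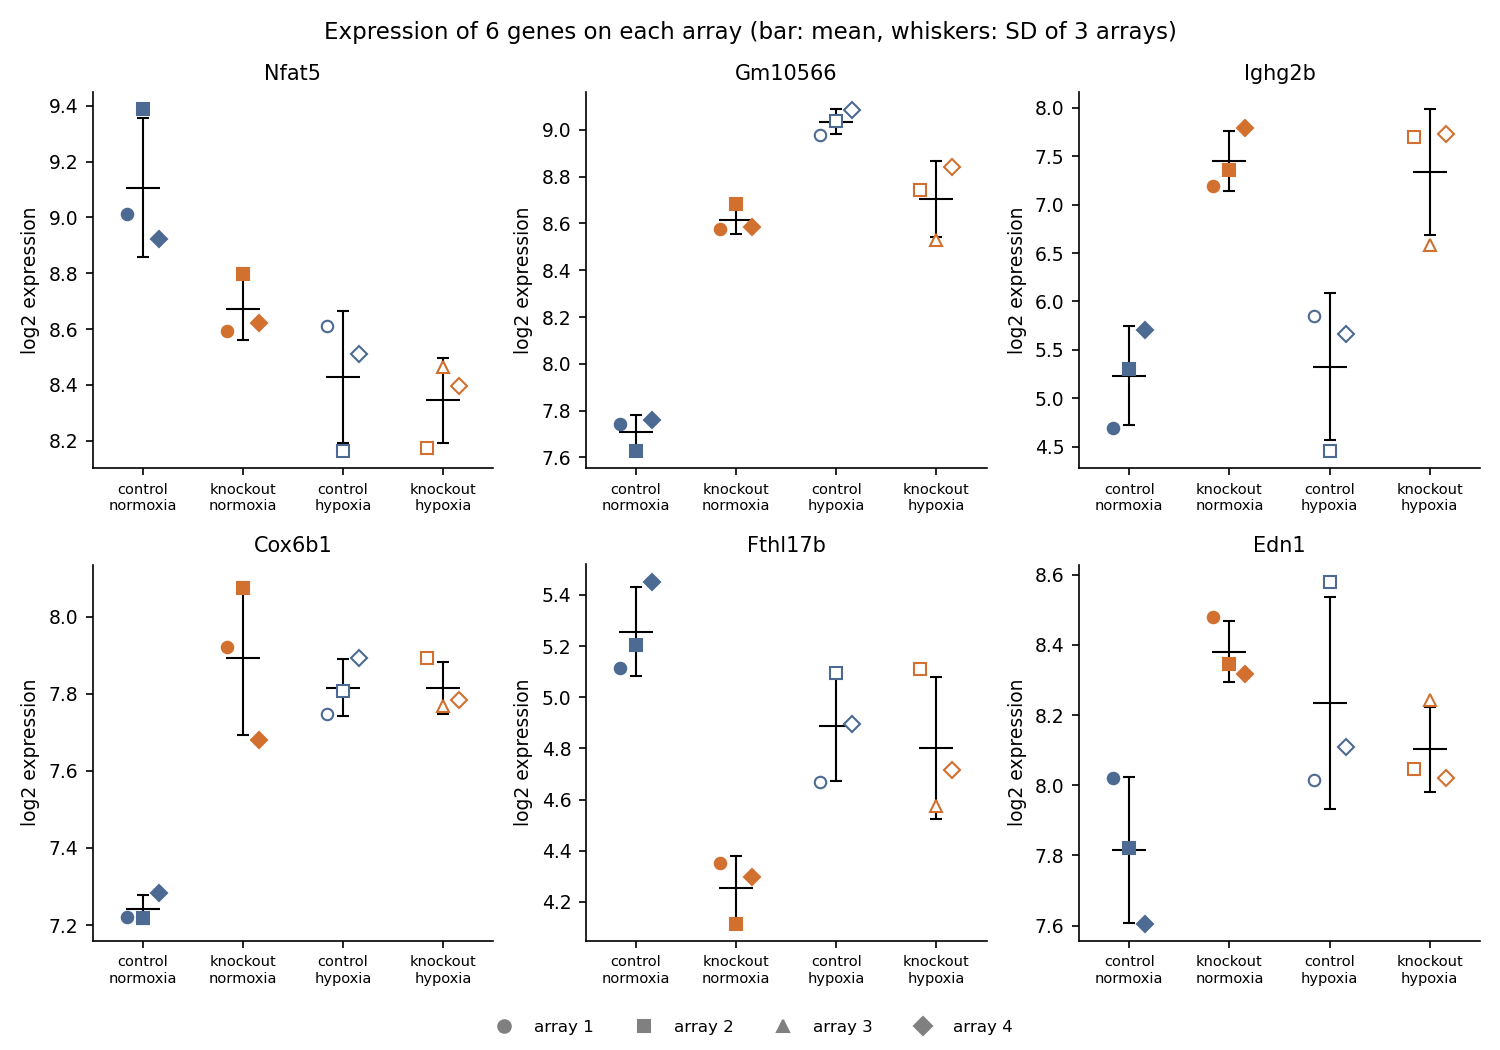
Log2 expression of 6 genes on each of the 12 arrays, with the array number as symbol, the group mean as a bar and its SD as whiskers. Normoxic knockout and control arrays are separate for all 6 genes; in hypoxia, shown with open symbols, they overlap for Nfat5, Cox6b1, Fthl17b and Edn1, stay apart in the same direction for Ighg2b, and are apart in the opposite direction for Gm10566.

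One gene passed the threshold of an adjusted p under 0.05, 0.00405% of the 24704 tested. It was Gm10566, which RefSeq lists as a pseudogene, and it rose. Its control arrays read 7.74, 7.63 and 7.76 and its knockout arrays 8.58, 8.68 and 8.58, a difference of 0.90 ± 0.09 (SE), or 1.87-fold, with a limma adjusted p of 0.012. The groups are narrow and far apart. A pseudogene can share its sequence with near-identical copies, so which locus gave the signal is uncertain. The call was lost, with the difference between 0.86 and 0.93, when any of the 6 arrays was left out, and its adjusted p was 0.11 when the spread was estimated from the 6 normoxic arrays alone. No gene fell at that threshold. At an unadjusted p under 0.05 there were 905 genes higher in the knockout (3.66%) and 888 lower (3.59%), 7.26% in all. Knockout and control arrays did not overlap for 2886 genes (11.7%), 1350 with all knockout arrays above (5.46%) and 1536 with all below (6.22%).

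Behind Gm10566, the genes with the smallest p above control included parts of mitochondria. Cox6b1, a nuclear-encoded subunit of cytochrome c oxidase, read 7.22, 7.22 and 7.28 in controls and 7.92, 8.07 and 7.68 in knockouts (difference 0.65 ± 0.10, adjusted p = 0.26). Uqcc2, an assembly factor of respiratory complex III, was at 4.16, 3.89 and 4.17 in controls and 4.76, 4.61 and 4.56 in knockouts (0.57 ± 0.09, adjusted p = 0.32). Both genes had every knockout array above every control array. Mrpl54, a protein of the mitochondrial ribosome, and Mrm3, a methyltransferase of mitochondrial ribosomal RNA, differed by 0.60 and 0.45 (adjusted p = 0.47 and 0.38). Chia1, the acidic chitinase of the airway and gut, read 8.43, 8.12 and 8.04 against 8.76, 8.88 and 8.87 (0.64 ± 0.11, adjusted p = 0.32). Dpy19l3, Ccdc3, Cdip1 and Tigit, an inhibitory receptor on T cells, completed the 10, with differences of 0.46, 0.61, 0.43 and 0.35, beside Ighg2b, described below. Tigit read 2.93 to 3.45 on the normoxic arrays, near the low end of the array's scale. Without knockout array 2, the 10 genes had differences of 0.36 to 2.26.

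On the lower side, Fthl17b, a ferritin heavy chain-like gene of the X chromosome, had the smallest p. Its control arrays read 5.11, 5.20 and 5.45, and its knockout arrays 4.35, 4.11 and 4.30, so the groups lay apart by -1.0 ± 0.15 (adjusted p = 0.26). It belongs to a family of close copies, so the source of the signal is uncertain. D5Ertd615e read 7.42, 7.54 and 7.21 against 6.76, 6.10 and 6.23 (-1.03 ± 0.17, adjusted p = 0.32). Ddb2, a DNA damage recognition protein, was lower by -0.49, and Ppid, a cyclophilin that partners heat shock chaperones, by -0.68 (adjusted p = 0.38 for both). Zdhhc16, Gnrh1, Trim60, Cthrc1, Igflr1 and Rab26os differed by -0.41 to -0.61. Cthrc1, a secreted matrix protein of activated fibroblasts, read 5.87, 5.82 and 5.68 in controls and 5.47, 5.04 and 5.30 in knockouts. Its direction is the opposite of that of the collagen Col3a1, described below.

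The 10 genes named as the largest differences above control, among those at an unadjusted p under 0.05 whose arrays did not overlap, were Thrsp, Ighg2b, Ltf, Iglv2, Cox8b, Ighv1-18, A2ml1, Igkv8-27, Gpd1 and Reg3g. Larger differences with overlapping arrays, such as 2.65 for Ighg2c and 2.09 for Ucp1, are outside this rule. Thrsp, a regulator of fat synthesis, differed by 2.27, with 7.14, 6.49 and 5.56 in controls and 7.76, 10.43 and 7.83 in knockouts. Cox8b and Gpd1, both abundant in muscle or fat, differed by 1.73 and 1.35. These 3 genes were highest on knockout array 2, and without it their differences were 1.40, 0.76 and 0.54. Ltf, the iron-binding antimicrobial protein lactoferrin and a known target of the estrogen receptor, read 5.57, 5.09 and 5.43 in controls and 7.21, 8.40 and 6.81 in knockouts (2.11 ± 0.60, adjusted p = 0.57). Reg3g, a bactericidal lectin of epithelia, read 8.29, 7.78 and 7.41 against 9.17, 9.23 and 9.05 (1.33 ± 0.30, adjusted p = 0.52), and the protease inhibitor A2ml1 differed by 1.41. These 3 kept 1.65, 1.28 and 1.36 without knockout array 2. None of them passed correction.

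Among the largest differences below control were 3 members of the gamma protocadherin cluster, Pcdhga4, Pcdhgb5 and Pcdhga8 (-1.06, -0.80 and -0.80). They are adhesion molecules whose transcripts share their 3' exons, so the array may not separate them. Fendrr, a long noncoding RNA transcribed beside the lung mesenchyme regulator Foxf1, read 9.66, 10.28 and 9.11 in controls and 8.53, 8.95 and 8.87 in knockouts (-0.90 ± 0.24, adjusted p = 0.56); Foxf1 itself differed by -0.21 with overlapping groups. Lncpint, another long noncoding RNA, and Tbrg3 differed by -0.76 and -0.81. Trav8d-1, a T cell receptor segment with near-identical copies, differed by -0.89.

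The genes that NFAT5 is known to drive showed no shift in their median. Of 23 measured members of the list of osmotic response targets, 0 were called, 0 reached an unadjusted p of 0.05 above control, against 3.66% of all genes, and 2 did below, one of them Nfat5 itself. The median difference was 0.02, beside -0.0039 for all genes. Slc5a3, the inositol transporter, read 6.15, 5.61 and 5.10 in controls and 5.43, 5.64 and 5.74 in knockouts (-0.02 ± 0.25). For Slc6a6, the taurine transporter, the values were 9.78, 10.18 and 9.77 against 9.79, 9.72 and 9.92 (-0.10 ± 0.12). The betaine transporter Slc6a12 differed by 0.06 ± 0.11, and Slc38a2, an amino acid transporter, by -0.18 ± 0.11. Every knockout array lay below every control array for Slc38a2, while the groups overlapped for Slc5a3, Slc6a6 and Slc6a12. For each of these 4 the SE leaves room for a difference either way, the widest for Slc5a3. The other low member was Hspa1a, an inducible heat shock chaperone, at 7.14, 7.13 and 8.41 in controls and 6.46, 6.16 and 6.79 in knockouts (-1.09 ± 0.38, adjusted p = 0.62). Its near-identical neighbour Hspa1b read 5.31, 5.51 and 6.97 against 5.38, 5.55 and 5.24, with overlapping groups, and the array may not separate the pair. Control array 4 was the highest for both genes. Hspa8, the constitutive member of the family, differed by -0.26 ± 0.09, and 2 of 18 heat shock genes were below and 0 above at an unadjusted p under 0.05, where 3.59% and 3.66% of all genes were.

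Of 12 NFAT family and calcineurin genes, Nfat5 alone reached an unadjusted p of 0.05, where 7.26% of all genes did. The calcineurin-dependent members Nfatc1, Nfatc2, Nfatc3 and Nfatc4 differed by -0.01, -0.01, -0.06 and -0.09. The hexamer TGGAAA, the core that NFAT proteins recognise, searched on both strands, occurred in 6 of 28 RefSeq promoter windows of the osmotic target genes (21.4%) and in 21.4% of all 32851 windows, each 300 bases long. A match of this kind is a description of the letters and not a binding site.

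The antibody gene Ighg2b differed by nearly the same amount in normoxia and in the hypoxic animals, without passing correction in either. Ighg2b, the constant region of immunoglobulin G2b made by class-switched plasma cells, read 4.70, 5.30 and 5.71 on the normoxic control arrays and 7.19, 7.36 and 7.79 on the knockout arrays. Every knockout array lay above every control array, by a mean of 2.21 ± 0.40 (SE), 4.64-fold, with an unadjusted limma p of 0.00014 and an adjusted p of 0.38. Leaving out any of the 6 arrays gave 1.94 to 2.45. In hypoxia the control arrays read 5.85, 4.46 and 5.67 and the knockout arrays 7.69, 6.58 and 7.72, a difference of 2.01 with an unadjusted p of 0.00033 and an adjusted p of 0.95. The test of a difference between the oxygen states gave an unadjusted p of 0.72. The mean over both states, a contrast added after the values were seen, was 2.11 ± 0.28, with an adjusted p of 0.22. Jchain, which joins antibody units into polymers and marks plasma cells, read 7.37, 6.44 and 7.39 against 7.73, 7.66 and 8.43 in normoxia (0.88, adjusted p = 0.63). In hypoxia Jchain differed by 1.05, with an unadjusted limma p of 0.0068 and an adjusted p of 0.95. Every knockout array lay above every control array for Jchain in both states. Other plasma cell markers did not share this size: Xbp1, Mzb1 and Tnfrsf17 differed by 0.16, 0.06 and -0.08. Jchain was the 1 of 8 plasma cell markers at an unadjusted p under 0.05, and of 11 B cell markers there were 0, where 7.26% of all genes were. The part of B and plasma cell number in the result was not tested.

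The other constant regions had overlapping groups in normoxia. Ighm, Ighe and Ighg3 differed by -0.02, -0.06 and 0.11, and the light chain Igkc and the heavy chain Igha by 0.21 and 0.55, all with overlapping groups. Ighg2c read 7.15, 3.35 and 4.18 in controls and 7.93, 4.67 and 10.01 in knockouts, with array 4 the highest in the knockout, array 1 the highest in the control and a difference of 2.65 ± 1.18; without knockout array 2 the difference was 4.08. Ighg1 differed by 0.74 ± 0.61 in normoxia and by -0.89 in hypoxia. The hypoxic differences of Igha, Igkc and Ighg2c were 0.60, 0.55 and 1.54, with every knockout array above every control array for Igkc and Ighg2c. For Ighm, Ighg3 and Ighe they were 0.67, 0.39 and -0.07, with overlapping groups. Over 213 immunoglobulin genes, a set chosen after the values were seen, 152 had a higher mean in the knockout and the median difference was 0.22, with 11 above and 2 below at an unadjusted p under 0.05, where 3.66% of all genes were above and 3.59% below. Without knockout array 2 there were 32 above and 1 below, where 3.94% and 3.83% of all genes were, and the median was 0.36. In hypoxia, the median was 0.31, with 40 above and 4 below, where 2.27% of all genes were above and 2.83% below. Iglv2, Ighv1-18 and Igkv8-27, variable segments among the largest differences, were 1.88, 1.67 and 1.39 higher. Without knockout array 2 the differences were 1.11, 2.15 and 0.87. For Iglv2 the knockout arrays read 6.52, 8.85 and 6.54, and the highest control array 6.47. Variable segments are many and alike, so the array may mix them. The chemokine Ccl8, also picked out after its values were seen, read 3.37, 3.36 and 3.30 in controls and 3.80, 3.76 and 3.60 in knockouts, near the low end of the array's scale.

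The circadian clock was the gene list with the lowest median of the 25 lists described when all arrays were used. Without knockout array 2 the nuclear noncoding RNA and splicing lists, described below, were lower, at -0.42 and -0.39 against -0.36. Both lists were also lower than the clock without control array 4. In the circadian clock the proteins BMAL1 (gene Arntl), NPAS2 and CLOCK bind E-box sequences and switch on the Per genes, Ciart, Dbp and Nr1d2. The products of the Per genes, Ciart and Nr1d2 in turn hold back BMAL1 and its partners. Nr1d and ROR proteins compete at another element through which Arntl, Npas2 and Nfil3 are controlled. These promoters are shown because members on the 2 sides of the loop differed in opposite directions. Capitals mark CACGTG, the E-box, in Ciart (GRCm38.p6, chr3:95882179-95882478, minus strand) and Per1 (chr11:69098699-69098998, plus strand), and the ROR element TAGGTCA, or its reverse complement TGACCTA, in Arntl (chr7:113207261-113207560, plus strand) and Nfil3 (chr13:52980990-52981289, minus strand).
Ciart: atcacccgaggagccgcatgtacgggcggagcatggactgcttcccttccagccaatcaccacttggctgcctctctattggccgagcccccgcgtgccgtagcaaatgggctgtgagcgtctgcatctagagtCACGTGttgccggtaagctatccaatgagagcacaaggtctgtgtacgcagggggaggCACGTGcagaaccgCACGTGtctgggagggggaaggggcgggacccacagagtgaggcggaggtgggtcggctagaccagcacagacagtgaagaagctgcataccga
Per1: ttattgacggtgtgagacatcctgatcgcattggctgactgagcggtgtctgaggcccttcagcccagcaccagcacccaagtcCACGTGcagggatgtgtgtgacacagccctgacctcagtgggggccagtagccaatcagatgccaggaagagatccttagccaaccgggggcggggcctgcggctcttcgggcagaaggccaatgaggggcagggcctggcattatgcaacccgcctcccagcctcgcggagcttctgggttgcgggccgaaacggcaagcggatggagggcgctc
Arntl: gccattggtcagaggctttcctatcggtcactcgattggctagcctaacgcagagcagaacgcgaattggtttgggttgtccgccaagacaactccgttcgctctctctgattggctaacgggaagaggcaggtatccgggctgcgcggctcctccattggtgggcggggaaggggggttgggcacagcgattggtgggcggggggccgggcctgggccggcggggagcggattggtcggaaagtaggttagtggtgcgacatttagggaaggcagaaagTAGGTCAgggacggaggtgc
Nfil3: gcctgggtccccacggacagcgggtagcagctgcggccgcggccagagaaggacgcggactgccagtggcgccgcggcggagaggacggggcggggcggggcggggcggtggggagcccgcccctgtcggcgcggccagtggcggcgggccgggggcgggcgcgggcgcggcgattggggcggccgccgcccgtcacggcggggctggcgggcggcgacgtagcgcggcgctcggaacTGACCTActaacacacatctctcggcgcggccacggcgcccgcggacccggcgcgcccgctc
Of the 17 clock genes 15 had a window in the RefSeq table, and Per1 and Arntl have 2 each, of which the 1 with a match is printed. The sequences are RefSeq windows of 300 bases across a start site, written 5′ to 3′ on the strand of the gene. Ciart holds 3 E-boxes, at -116, -58 and -44 from the start site, and Per1 holds 1, at -166. The ROR element lies at 31 in Arntl and at -12 in Nfil3. CACGTG was found in 6 of 20 windows of the clock genes (30%) against 7.15% of all windows, and TAGGTCA in 2 of 20 against 2.61%, searching both strands.

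Ciart, a repressor within the loop, had the smallest p of the 17 clock genes. Its control arrays read 6.52, 6.66 and 6.50 and its knockout arrays 5.99, 6.15 and 6.04, without overlap (-0.50 ± 0.11, adjusted p = 0.49). Per2 read 5.91, 7.29 and 7.46 in controls and 5.48, 5.85 and 6.33 in knockouts, a difference of -0.99. For Per1 the values were 8.94, 9.64 and 9.73 against 8.38, 8.75 and 9.16 (-0.67). On the opposite side, Arntl read 7.73, 6.17 and 6.56 in controls and 8.11, 7.51 and 7.34 in knockouts (0.83), and Npas2 6.68, 4.88 and 5.16 against 7.19, 6.57 and 6.21 (1.09). Control array 1 lay with the knockout arrays for these last 4 genes, so the groups overlapped. In all, 6 clock genes were below and 3 above at an unadjusted p under 0.05 (3.59% and 3.66% of all genes), 0 passed correction, and the median was -0.37. Without control array 1 the median was -0.62, without control array 2 it was -0.23, and without control array 4 it was -0.18. Dbp, an output gene of the clock, spread from 8.16 to 9.98 among the controls alone and differed by -0.79 (adjusted p = 0.72). In hypoxia the list median was 0.06, and 0 members reached an unadjusted p of 0.05, where 5.1% of all genes did. The labels do not give the time of day at which lungs were taken.

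**Figure D2:**
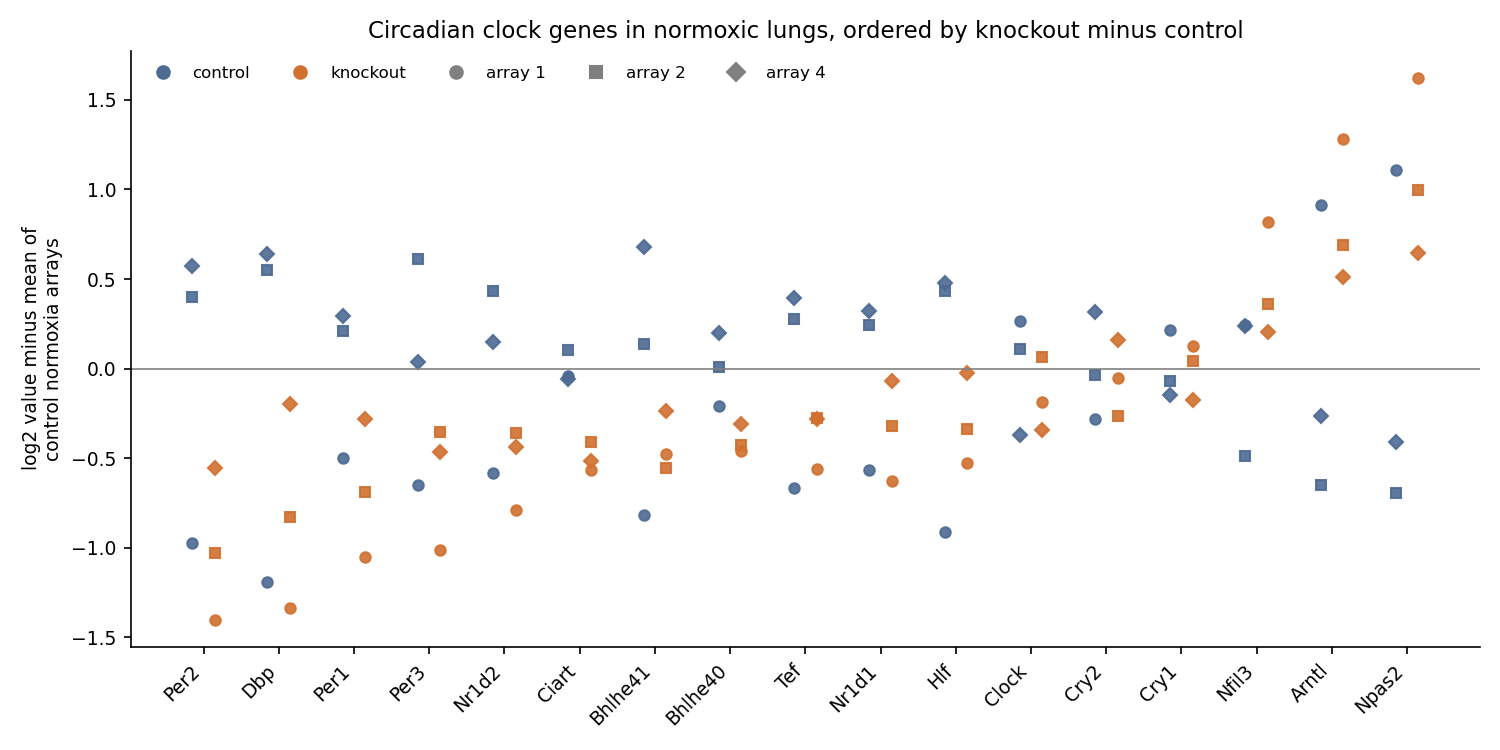
Log2 value of 17 clock genes on each normoxic array, minus the mean of the 3 control arrays. Period genes and Dbp lie to the left with knockout arrays below 0, and Nfil3, Arntl and Npas2 to the right with knockout arrays above 0; control array 1, the blue circle, lies near the knockout arrays for most of the genes that differ.

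Noncoding RNAs that stay in the nucleus and genes of the splicing machinery had lower means in the knockout throughout. All 13 nuclear noncoding RNAs were below control in the mean, by a median of -0.27, and 5 reached an unadjusted p of 0.05. Neat1, the scaffold of nuclear paraspeckles, read 10.62, 11.04 and 10.15 in controls and 9.60, 10.26 and 9.66 in knockouts (-0.76 ± 0.27). Malat1, which lies in nuclear speckles, read 12.67, 12.76 and 12.50 against 12.31, 12.62 and 12.24 (-0.25 ± 0.16). Among 21 splicing factors and kinases, all had a mean below control, by a median of -0.26, and 6 reached an unadjusted p of 0.05. Clk1, a kinase that phosphorylates SR splicing proteins, read 10.28, 10.39 and 9.76 in controls and 8.97, 9.82 and 9.09 in knockouts (-0.85 ± 0.25). Its relative Clk4 read 8.26, 8.25 and 7.84 against 7.18, 7.76 and 7.23 (-0.73 ± 0.21). None of these genes passed correction, and 3.59% of all genes were below at the unadjusted threshold. Knockout array 2 lay nearest the controls. Without it, 8 of 13 noncoding RNAs and 12 of 21 splicing genes reached an unadjusted p of 0.05 below control, against 3.83% of all genes, and the medians were -0.42 and -0.39. The groups overlapped in both list means: control array 4 was at 5.53 and 8.83, below the 5.63 and 8.99 of knockout array 2. Without control array 2 the medians were -0.20 and -0.19. In hypoxia the medians were 0.18 and 0.09. There, 0 members of either list reached an unadjusted p of 0.05, where 5.1% of all genes did.

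Endothelial identity genes were close to control. Of 21 pan-endothelial markers, 0 were above and 1 was below at an unadjusted p under 0.05, where 3.66% and 3.59% of all genes were, and the median difference was -0.01. Cdh5, the junction protein VE-cadherin, read 12.09, 12.27 and 12.30 in controls and 12.23, 12.23 and 12.45 in knockouts (0.08 ± 0.10), and Pecam1 differed by -0.03 ± 0.08. Both were among the higher values on these arrays. Egfl7, a secreted endothelial factor, was the low member, at 10.11, 10.49 and 10.22 against 9.70, 10.01 and 10.15 (-0.32 ± 0.13). Tek and Nos3, the angiopoietin receptor and endothelial nitric oxide synthase, differed by -0.13 ± 0.08 and -0.17 ± 0.10.

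Among vascular signals, Edn1 had the smallest p of 32 pulmonary hypertension genes. It encodes endothelin-1, a strong constrictor of lung vessels made by endothelium. Control arrays read 8.02, 7.82 and 7.61 and knockout arrays 8.48, 8.35 and 8.32, with no overlap and a difference of 0.56 ± 0.15, 1.48-fold (adjusted p = 0.56). In hypoxia it was -0.13, and the interaction had an unadjusted p of 0.0063. Apln, the vasodilator apelin, differed by 0.40 ± 0.17. These were the 2 of the 32 at an unadjusted p under 0.05, all above control, a share near that of all genes (3.66% above and 3.59% below). Bmpr2, the BMP receptor mutated in hereditary pulmonary hypertension, read 11.09, 11.36 and 10.80 against 10.61, 11.13 and 10.80 (-0.24 ± 0.21). The growth factors Pdgfb and Vegfa differed by 0.22 ± 0.15 and -0.16 ± 0.09, and Pdgfc by 0.31 ± 0.12. Of 23 BMP and TGF-beta response genes, 1 was above, Gdf10 at 0.60 ± 0.22, and 1 below, Bmper at -0.38 ± 0.14, again near those shares. Among 21 targets of the hypoxia-inducible factors, 3 were above, Slc2a1, Egln3 and Mxi1, by 0.25, 0.41 and 0.24, beside 3.66% of all genes; Egln3 differed by 0.25 without knockout array 2.

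Extracellular matrix genes were above control almost throughout, by modest amounts. Of 33 measured, 32 had a higher mean in the knockout, the median difference was 0.22, and 6 reached an unadjusted p of 0.05, against 3.66% of all genes; 0 passed correction. Fbln2, an elastic fibre protein, read 6.07, 6.18 and 6.32 in controls and 6.51, 6.85 and 6.43 in knockouts (0.41 ± 0.11). Col3a1, a fibrillar collagen, read 8.63, 8.11 and 8.23 against 9.20, 8.80 and 8.51 (0.51 ± 0.20), with 1 knockout array inside the control range. Mmp2, a protease that remodels matrix, and Timp1, an inhibitor of such proteases, differed by 0.43 and 0.51. Knockout array 1, not array 2, had the highest list mean, 8.20, against 8.05 and 8.01 on the other knockout arrays and 7.82 to 7.89 on the controls. Without knockout array 2 the median was 0.27. In hypoxia the median was -0.18. Of the 33 genes, 10 had an unadjusted limma interaction p under 0.05, where 8.25% of all genes did.

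Smooth muscle genes were also higher, but partly with the heart and fat markers. Of 17 measured, 7 were above and 0 below at an unadjusted p under 0.05, where 3.66% and 3.59% of all genes were, with a median of 0.26. Tagln, an actin-binding protein of smooth muscle, read 7.97, 7.99 and 7.95 in controls and 8.28, 8.30 and 8.13 in knockouts (0.27 ± 0.08). Des, the muscle intermediate filament desmin, read 8.20, 8.18 and 8.26 against 8.55, 8.62 and 8.51 (0.34 ± 0.10), and Tpm1 differed by 0.22. Without knockout array 2, 3 of the 17 were above at an unadjusted p under 0.05, against 3.94% of all genes, and the median was 0.14. Casq2, also a heart gene, read 4.86, 6.19 and 5.58 on the knockout arrays. In hypoxia the median was -0.13.

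Energy and lipid genes were above control, and much of the size came from knockout array 2. Of 31 respiratory chain genes, 12 were above and 0 below at an unadjusted p under 0.05, where 3.66% and 3.59% of all genes were, with a median of 0.26. Without that array 6 were above, where 3.94% of all genes were, and the median was 0.16. Sdhb, the iron-sulfur subunit of succinate dehydrogenase, read 8.41, 8.38 and 8.47 in controls and 8.72, 9.15 and 8.73 in knockouts (0.45 ± 0.11). Of 14 fatty acid oxidation genes, 5 were above, or 2 without the array, and the median went from 0.31 to 0.098. Of 13 genes of fatty acid synthesis and storage, 4 were above, or 3 without the array, and the median went from 0.40 to 0.18. Fasn, fatty acid synthase, shows it: 10.81, 10.66 and 10.69 in controls against 11.04, 11.98 and 11.03 in knockouts.

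Cholesterol synthesis differed from those lists in that knockout array 2 did not stand apart. Of 14 measured genes, 5 were above and 0 below at an unadjusted p under 0.05, where 3.66% and 3.59% of all genes were, with a median of 0.27 and of 0.22 without that array. Sqle, squalene epoxidase, read 7.21, 6.97 and 7.26 in controls and 7.72, 7.76 and 7.57 in knockouts (0.54 ± 0.12, adjusted p = 0.48). Cyp51, the sterol demethylase, read 6.40, 5.51 and 5.94 against 6.48, 6.54 and 6.59, and Mvk and Dhcr7 differed by 0.49 and 0.37. The list mean was 7.25, 6.91 and 7.14 on the control arrays and 7.37, 7.38 and 7.31 on the knockout arrays; without control array 2, the lowest, the median was 0.16. In hypoxia it was 0.03.

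The heart and fat markers themselves followed single arrays. The mean of 20 cardiomyocyte genes was 6.06, 6.61 and 5.99 on the control arrays and 5.99, 7.69 and 6.78 on the knockout arrays, and 4 reached an unadjusted p of 0.05 above control, where 3.66% of all genes did. For 11 brown fat genes the means were 4.53, 4.64 and 4.70 against 4.70, 6.39 and 4.90, and for 12 white fat genes 6.35, 6.18 and 6.19 against 6.54, 7.91 and 6.66. In the white fat mean every knockout array lay above every control array. Without knockout array 2 the median went from 0.54 to 0.14 for heart, from 0.34 to 0.13 for brown fat and from 0.69 to 0.39 for white fat. Mouse lung veins carry a sleeve of heart muscle, and fat lies at the root of the lung, so a lung sample can hold either tissue. Myh6, the atrial myosin heavy chain, read 7.07, 8.22 and 6.93 against 7.21, 9.64 and 8.56. With the brown fat mean as a covariate, a setting added after the data were seen, the medians were 0.15 for the respiratory chain, 0.026 for fatty acid oxidation and 0.25 for cholesterol synthesis.

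**Figure D3:**
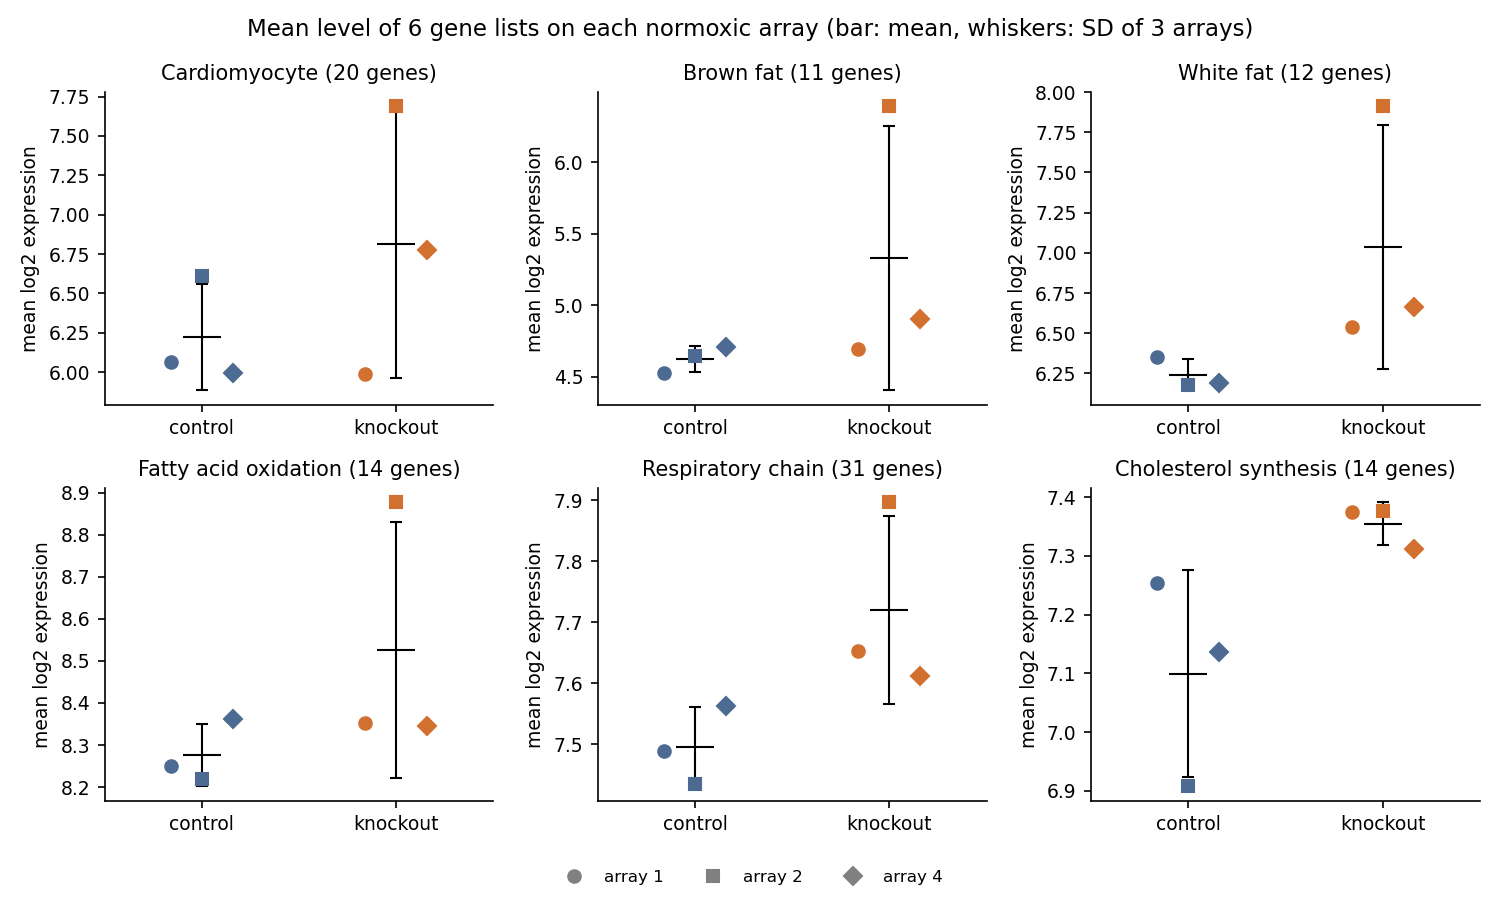
Mean log2 expression of 6 gene lists on each normoxic array, with the group mean as a bar and the SD of 3 arrays as whiskers. Knockout array 2, the square, lies far above the others for heart muscle, both fats, fatty acid oxidation and the respiratory chain, and level with the other knockout arrays for cholesterol synthesis.

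Airway secretory genes differed among themselves. Of 11 club and secretory cell markers, 4 were above and 0 below at an unadjusted p under 0.05, where 3.66% and 3.59% of all genes were, with a median of 0.06; without knockout array 2, 1 was above. Besides Reg3g they were Bpifa1 and Bpifb1, antibacterial proteins of the airway lining, and the secretoglobin Scgb3a1. Bpifa1 read 11.17, 10.62 and 10.60 in controls and 11.81, 12.55 and 11.77 in knockouts (1.25 ± 0.43), and Bpifb1 differed by 0.72. The club cell genes Scgb1a1, Scgb3a2 and Cyp2f2 differed by -0.03, 0.03 and 0.00. Lcn2, an antibacterial protein outside the list and chosen after its values were seen, lay below control on every knockout array, by -0.28 ± 0.18. Of 20 inflammatory cytokine and adhesion genes, 0 reached an unadjusted p of 0.05 in either direction. Of 22 interferon-stimulated genes 1 did, Ifi27l2a at 1.07 ± 0.34, and the median was 0.05. Because the knockout mice alone had received tamoxifen, which binds the estrogen receptor, 14 estrogen receptor targets were also read. At an unadjusted p under 0.05, 2 were above, Ltf at 2.11 and Tff2 at 0.64, and 0 below. Of all genes 3.66% were above and 3.59% below at that threshold, and the list median was 0.08. The list mean was 6.93, 6.98 and 7.14 on the control arrays and 7.26, 7.28 and 7.24 on the knockout arrays, without overlap. That mean includes Ltf, whose difference of 2.11 weighs on it, so it is not a reading of the whole list. Of the 14 genes, 9 had a mean above control and 5 below. Here too tamoxifen and the deletion cannot be told apart.

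**Figure D4:**
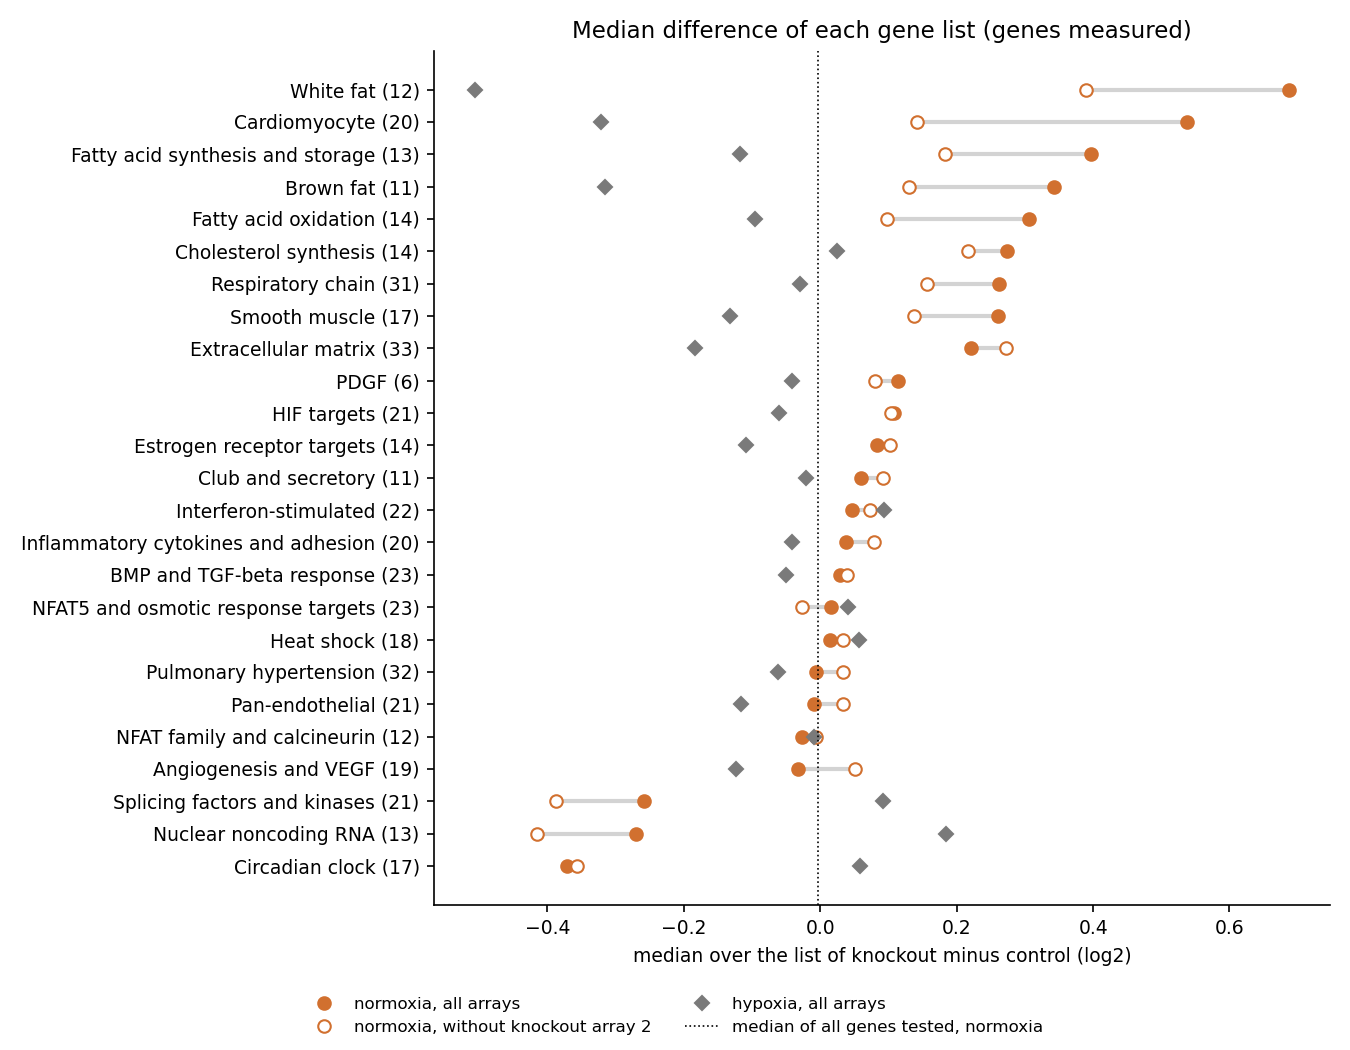
Median knockout minus control difference (log2) of 25 gene lists in normoxia with all arrays (filled circles), in normoxia without knockout array 2 (open circles) and in hypoxia (grey diamonds), with the number of genes measured in brackets and the median of all genes as a dotted line. The fat, heart, fatty acid and respiratory chain lists move towards 0 without knockout array 2, the nuclear RNA and splicing lists move away from it, and the matrix, cholesterol and clock lists stay near their place.

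The genes named in normoxia were read again in the hypoxic animals. Of the 38 genes named by p or size, 18 had the same sign in hypoxia (47.4%), beside 44.1% of all genes. Ighg2b, Igkv8-27, Uqcc2 and Pcdhgb5 had the same sign with an unadjusted p under 0.05 in hypoxia, which makes 4 of 38, beside 520 of all 24704 genes; 5 had the opposite sign at that threshold, beside 739 of all genes. Over all genes 5.1% were at that p in hypoxia. Fat markers were high on hypoxic control array 1. Ucp1 read 7.66, 4.28 and 3.55 on hypoxic control arrays 1, 2 and 4, and 3.34 to 3.53 on the hypoxic knockout arrays. Thrsp, Cox8b and Gpd1 were highest on that control array among the hypoxic arrays, at 8.90, 6.80 and 9.81. That array therefore weighs on their negative differences in hypoxia. The test of the difference between the oxygen states called 1 gene of 24704 (0.00405%), Gm10566: in hypoxia its control arrays read 8.98, 9.04 and 9.09 and its knockout arrays 8.74, 8.53 and 8.84, so knockout lay below control. Of the 38 genes, 29 had an unadjusted interaction p under 0.05, where 8.25% of all genes did. The genes were picked for their normoxic difference, which enters that test, so the count is a description.

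**Figure D5:**
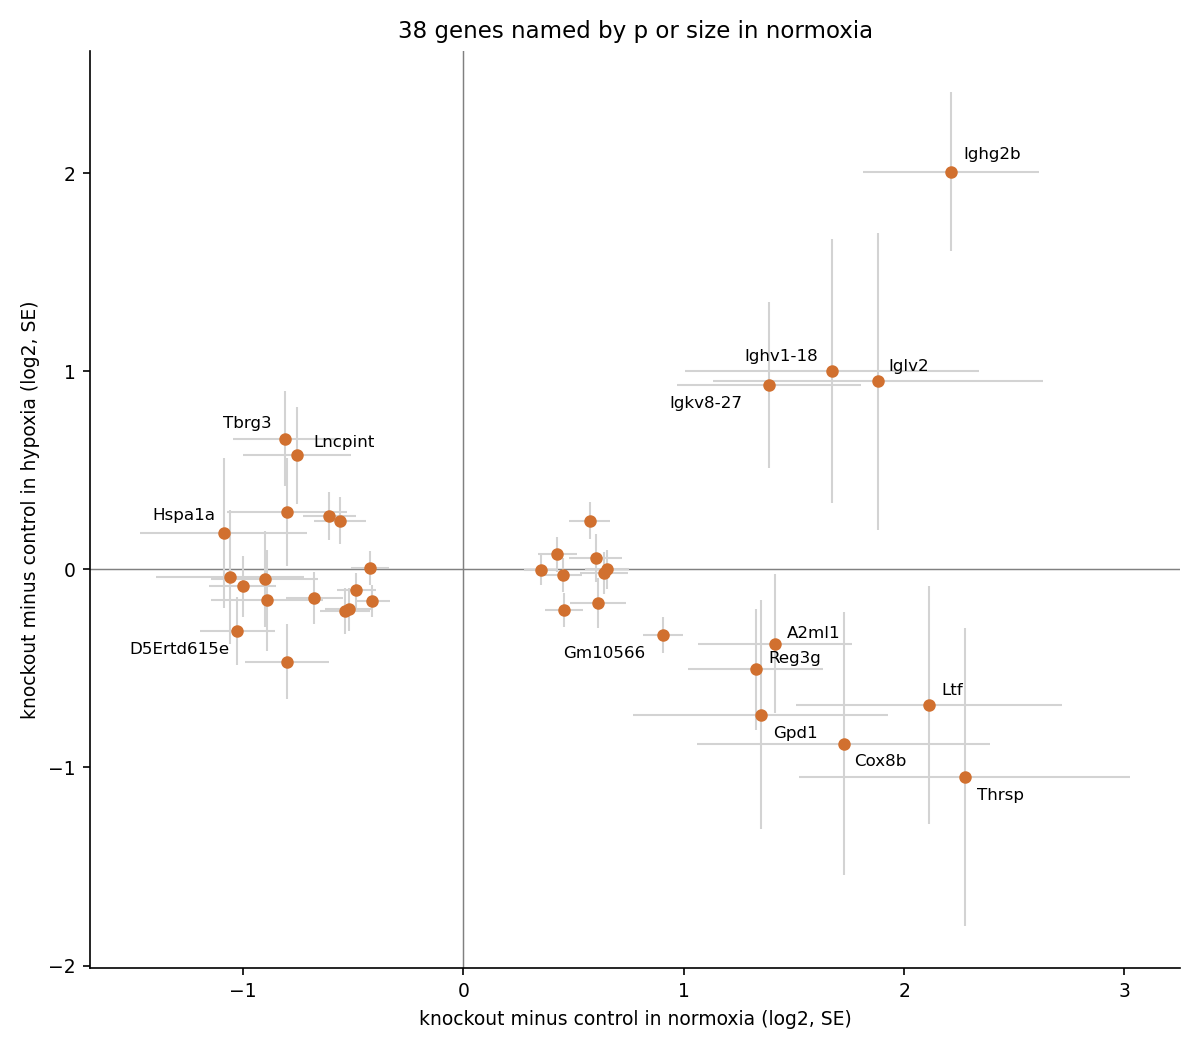
Knockout minus control in normoxia (horizontal) and in hypoxia (vertical), log2 with SE bars, for the 38 genes named by p or size in normoxia. Ighg2b lies at 2.21 and 2.01, far from the other genes, with 3 antibody variable segments also above 0 on both axes. Thrsp, Ltf, Cox8b, Gpd1, A2ml1, Reg3g and Gm10566 are above 0 in normoxia and below 0 in hypoxia. For Thrsp, Cox8b and Gpd1 the highest hypoxic value was on control array 1, where fat markers were high.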

How the data were processed

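Biotin-labelled cRNA from whole mouse lung, perfused with cold Ringer solution, was hybridised to Affymetrix arrays. The deposited values are log2 expression per probe set, made by the authors with RMA, per the submitters' processing notes, which name no version of it. The sorted values of the 12 arrays were identical (largest difference 0) with a median of 4.55 on each, so the deposited table was quantile normalized and a shift common to most genes would not show. Values ran from 2.41 to 13.7. Of 25428 probe sets, 24705 had 1 gene symbol in GEO's platform annotation, 0 had several and 723 had none; 24673 were found by Entrez number in the RefSeq gene table, and 24704 genes were tested. The number of arrays, 3 a group, limits the precision.

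The 4 group means were fitted to all 12 arrays with limma 3.58.1 in R 4.3.3 (lmFit, eBayes without trend, 8 residual degrees of freedom). The contrasts were knockout minus control in normoxia, the same in hypoxia, and the difference between them. P-values are two-sided and from this fit unless an exact permutation test is named; adjusted p is Benjamini-Hochberg over all genes, with a threshold of 0.05. Unadjusted p-values are printed as description. The fit was tested on simulated data.

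Named genes are those called, the 10 with the smallest p and the 10 largest differences in each direction (the latter at an unadjusted p under 0.05 with no overlap of arrays; placeholder symbols left out), up to 4 members with the smallest p of each list described, and a short set named whatever its values. Other genes named were chosen after their values were seen. The members and the 65 gene lists were chosen with earlier results of these data known, and no list has a test of its own. Promoter sequences are from RefSeq (GRCm38.p6). Alternatives changed the arrays fitted, the spread estimate, weights, filter, features, normalization, the replicate block and covariates.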

Additional observations from a re-analysis of the deposited data

Results flagged for a closer look

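Gm10566 was the gene whose knockout effect differed between the oxygen states by the interaction test. Knockout minus control was 0.90 in normoxia and -0.33 in hypoxia, a difference of -1.236 ± 0.13 (SE), with a limma adjusted p of 0.017 over all genes. All 3 knockout arrays lay above the controls in normoxia and all 3 below them in hypoxia. Hypoxic controls, at 8.98 to 9.09, were above every normoxic array of either genotype, of which the highest read 8.68.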

How the results depend on the processing

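The count of genes called in normoxia, 1, was 0 with the 6 normoxic arrays alone, with the replicate block, with the cardiomyocyte or brown fat mean as covariate and without knockout arrays 2 and 4 together, and 0 to 0 when each array was left out; these fits have fewer residual degrees of freedom. It stayed 1 with a trend, robust eBayes, array weights, the filter on low values, all probe sets, cyclic loess and the Y-linked covariate. With the mean of the nuclear noncoding RNAs as covariate 1 gene was called, but it was Fthl17b (adjusted p = 0.015), and Gm10566 had 0.13. Gm10566 differed by 0.86 to 0.93 in all of these settings. Genes at an unadjusted p under 0.05 numbered 1109 without control array 2 and 2914 without control array 4, beside 1793, and 2667 with the cardiomyocyte covariate and 1083 with the filter on low values. The count of named genes called in the interaction, 1, was 0 with the replicate block and with each of the 4 covariates. It was 0 to 1 when each array was left out, where it was 1 without control array 4. Calls among other genes were not counted for the interaction in these settings. Nfat5 kept its direction and stayed short of the threshold in every setting. With single arrays left out it was at -0.53 to -0.30, a range that does not cover the covariate fits. The cause of these changes was otherwise not tested.

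The main fit treats arrays of equal number as unpaired. Deviations of same-numbered arrays correlated at 0.086, 0.28 and 0.18 for arrays 1, 2 and 4. Knockout arrays 2 and 4 correlated best with the control array of the same number, and knockout array 1 with control array 4 (0.16). Arrays of unlike number correlated at -0.28 to 0.16. With the replicate block Gm10566 had an adjusted p of 0.072.

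Of the 143 genes named by the rule, these changed sign; none of them had passed the threshold. With the nuclear RNA covariate: Slc5a3 0.38, Slc6a6 0.028, Bmpr2 0.23, Pecam1 0.027, Xist 0.34, Malat1 0.10, Tnf -0.049, Ppp3ca 0.047 and Ifit2 0.11. With the cardiomyocyte covariate: Slc6a12 -0.00026, Xist 1.07 and Pdgfd -0.0084. With the brown fat covariate: Ucp1 -0.50, Xist 0.29, Pdgfd -0.011 and Cidea -0.015. Without knockout arrays 2 and 4: Slc6a12 -0.00065, Ucp1 -0.084, Nppa -0.090, Myh6 -0.20, Xist 3.53, Pdgfd -0.0059 and Mybpc3 -0.057. Leaving out single arrays gave ranges across 0 for Slc5a3 (-0.28 to 0.24), Slc6a6 (-0.17 to 0.035), Slc6a12 (-0.012 to 0.14), Pecam1 (-0.067 to 0.031), Pdgfa (-0.0065 to 0.15) and Xist (-2.31 to 1.97).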

Other observations

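Klf2 and Klf4, transcription factors that blood flow switches on in endothelium, read lower in the knockout and were picked out after their values were seen. Klf4 had means of 8.70 in controls and 8.37 in knockouts (-0.33 ± 0.12, limma adjusted p = 0.62), and Klf2 9.82 and 9.50 (-0.32 ± 0.14, adjusted p = 0.68). For both, every knockout array lay below every control array. In hypoxia they differed by -0.19 and -0.30, with unadjusted p values of 0.12 and 0.064. Without knockout array 2 the normoxic differences were -0.37 and -0.22.

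Glucocorticoid-responsive genes were mostly below control, 11 of 15 in the mean, with a median of -0.22. Of these 0 were above and 2 were below at an unadjusted p under 0.05, Zbtb16 at -1.02 ± 0.44 and Per1, which also belongs to the clock list. In hypoxia the median was 0.15. Among macrophage genes, Chil3, a chitinase-like protein, differed by 0.39, and Folr2 and C1qc, of tissue macrophages, by 0.59 and 0.46, each at an unadjusted p under 0.05. The alveolar macrophage list had 3 of 14 above and 1 below, the interstitial macrophage and monocyte list 2 of 14 above and 0 below, where 3.66% of all genes were above and 3.59% below. Without knockout array 2 each of these lists had 1 above and 0 below, where 3.94% and 3.83% of all genes were. Pfkl and Pfkm, isoforms of the glycolytic enzyme phosphofructokinase, differed by 0.47 and 0.37, and were the 2 of 12 glycolysis genes at that threshold. None of these passed correction over all genes.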
